A study of Mus musculus with 4 samples.

Results

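Retinaldehyde dehydrogenases and the genes that carry and sense retinoic acid were followed here through 9 genes: Aldh1a1, Aldh1a2, Aldh1a3, Aldh1a7, Crabp1, Crabp2, Rara, Rarb and Rarg. All probe sets that the platform annotation gives to 1 of these genes were taken, which made 12 probe sets of the 45037 non-control probe sets on the array. Aldh1a7 was chosen by its signals in these same arrays, which differed greatly between the MTf lines, and the other genes were added for their place in the pathway or the gene family. The signals of Aldh1a7 in MTf 6 and MTf 4 are therefore a description and carry no test.

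RNA from 4 stably transfected lines was hybridised to the Affymetrix Mouse Genome 430 2.0 Array. They were made from LMTK- cells, a mouse fibroblast line derived from L cells that lacks thymidine kinase. The lines MTf 6 and MTf 4 are numbered clones that carry the cDNA of mouse melanotransferrin in the expression vector pCI-neo, and melanotransferrin is an iron-binding membrane protein of the transferrin family. The lines vector 1 and vector 2 carry pCI-neo without an insert, so all 4 lines hold the vector, and whether the vector lines are clones is not given in the sources used here. Each line has 1 array, so n = 2 per group. The spread behind a p-value is that between arrays of different lines, where line and technical differences cannot be told apart. The limma fit also draws the variance of each probe set towards a trend over all those tested. Meltf, the gene of melanotransferrin, gave a signal of 1885 in MTf 6 and 1519 in MTf 4, against 265 in vector 1 and 274 in vector 2. Of 10 fibroblast markers, 9 had signals over 200 in all 4 lines, and Thy1 did not.

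Retinoic acid is made from vitamin A in successive oxidations. Alcohol and retinol dehydrogenases turn retinol into retinaldehyde, and the enzymes of Aldh1a1, Aldh1a2 and Aldh1a3 turn retinaldehyde into retinoic acid. The cellular retinoic acid binding proteins Crabp1 and Crabp2 carry the product in the cytosol, and the receptors Rara, Rarb and Rarg bind it in the nucleus as partners of the retinoid X receptors. Rarb is itself a textbook target of retinoic acid, through a response element in its promoter. Aldh1a7 is a rodent relative and neighbour of Aldh1a1 and is not known as a retinaldehyde dehydrogenase.

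The promoters of Aldh1a1, Aldh1a7 and Rarb are shown because these genes were the members whose signal in MTf 6 was at least 2-fold above each of the other lines. Each is the 250 bases before an annotated start, 5′ to 3′ on the strand of the gene, from RefSeq on GRCm38.p6. Capitals mark the 65 bases that Aldh1a1 and Aldh1a7 share without a break and, in Rarb, the match to a direct repeat element. Aldh1a1 lies at chr19:20601718-20601967 on the plus strand, Aldh1a7 at chr19:20727557-20727806 on the minus strand and Rarb at chr14:16575477-16575726 on the minus strand.
Aldh1a1: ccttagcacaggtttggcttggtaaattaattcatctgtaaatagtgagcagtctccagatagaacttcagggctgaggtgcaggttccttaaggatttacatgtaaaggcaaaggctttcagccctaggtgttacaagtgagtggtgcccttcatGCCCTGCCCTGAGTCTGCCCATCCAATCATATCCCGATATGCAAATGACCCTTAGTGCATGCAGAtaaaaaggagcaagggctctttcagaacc
Aldh1a7: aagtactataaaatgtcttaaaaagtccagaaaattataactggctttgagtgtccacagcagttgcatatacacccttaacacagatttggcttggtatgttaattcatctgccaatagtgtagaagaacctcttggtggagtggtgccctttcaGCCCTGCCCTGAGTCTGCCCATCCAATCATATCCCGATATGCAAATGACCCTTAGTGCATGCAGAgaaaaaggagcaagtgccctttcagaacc
Rarb: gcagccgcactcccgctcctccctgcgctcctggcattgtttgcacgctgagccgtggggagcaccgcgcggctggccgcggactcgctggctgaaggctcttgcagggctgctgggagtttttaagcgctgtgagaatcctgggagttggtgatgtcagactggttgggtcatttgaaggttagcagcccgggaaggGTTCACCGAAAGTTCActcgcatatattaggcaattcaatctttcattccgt

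The shared run lies from 94 to 30 bases before the start in both aldehyde dehydrogenase genes. Over the last 100 bases before the start, 94 were identical without gaps. The other 10 windows of member genes, including an alternative start of Aldh1a1, matched Aldh1a7 at 18 to 35 of these bases. Among 32851 RefSeq promoter windows of 300 bases, the run was found in 2, those of Aldh1a1 and Aldh1a7. It holds a CCAAT box 72 to 68 bases before the start and the octamer ATGCAAAT 56 to 49 bases before it. These motifs do not overlap. On either strand, CCAAT occurred in 5 of 12 member windows and 37.4% of all windows. The octamer occurred in 3 of 12 and 1.74%, and TATAAA in 1 of 12 and 13.6%. Of the 3 windows with the octamer, those of Aldh1a1 and Aldh1a7 hold it in the shared run and are not independent. Both also hold a CCAAT site in that run, and overlapping windows of Rara share another, so the windows with CCAAT are not independent either. The motif searched in Rarb was a direct repeat with a spacer of 5 bases, the form bound by retinoic acid receptors, spelled as GGTCA or GTTCA followed, after any 6 bases, by GGTCA or GTTCA, on both strands. It matched Rarb from 52 to 37 bases before the start, was found in 1 of 12 member windows, and occurred in 0.247% of all windows. Rarb is known for a response element in its promoter, so this match is not read as a result about the members. Windows matched 7 of the 9 genes, all but Aldh1a3 and Crabp2. A match is a description of the letters and not evidence of binding.

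Aldh1a1, the cytosolic retinaldehyde dehydrogenase of many adult tissues, was at the bottom of the scale in 3 lines and high in MTf 6. Its probe set 1416468_at gave a signal of 3851 in MTf 6 and 29.0 in MTf 4, against 24.3 in vector 1 and 13.6 in vector 2. On the scale of log2(signal + 32), which is used for every fold and log2 difference here and understates changes of dim probe sets, MTf 6 was 63.7-fold over MTf 4. Since the MTf 4 signal was near the floor, the size of this fold is set by the offset, and it was 85.9 with an offset of 16 and 42.1 with one of 64. The filter of the test was set on the mean log2 value, which for Aldh1a1 corresponds to a signal of 125, below the limit of 196, so it was not tested. Its log2 difference of MTf minus vector was 3.26, with an adjusted p = 1.00 in a limma fit without the filter. The signals of MTf 4 and both vector lines were too near the floor to be ordered.

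Aldh1a7 was also high in MTf 6 alone. Its probe set 1418601_at gave 5530 in MTf 6 and 138 in MTf 4, against 216 in vector 1 and 136 in vector 2. MTf 6 was 32.8-fold over MTf 4 and 22.5-fold over the highest of the other 3 lines, vector 1. MTf 4 lay between the vector lines, so the groups overlapped.

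Aldh1a1 and Aldh1a7 were the 2 probe sets on the array with the largest excess of MTf 6 over each other line, and held these ranks with offsets of 16 and 64. They alone, 0.00444% of the 45037, passed 20-fold in this measure, a limit chosen after the values were seen, and the next, of Sorbs2, was at 16.9-fold. A signal at least 2-fold above each other line was found for MTf 6 in 1.48% of all non-control probe sets, and 3 of the 12 member probe sets were among them: Aldh1a1, Aldh1a7 and Rarb. Since Aldh1a7 was chosen for its level in MTf 6, this share is not read as a result about the members. The sequences of the array probes were not used here, and whether the probe set of 1 of these related genes also takes up the transcript of the other was not tested.

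**Figure D1:**
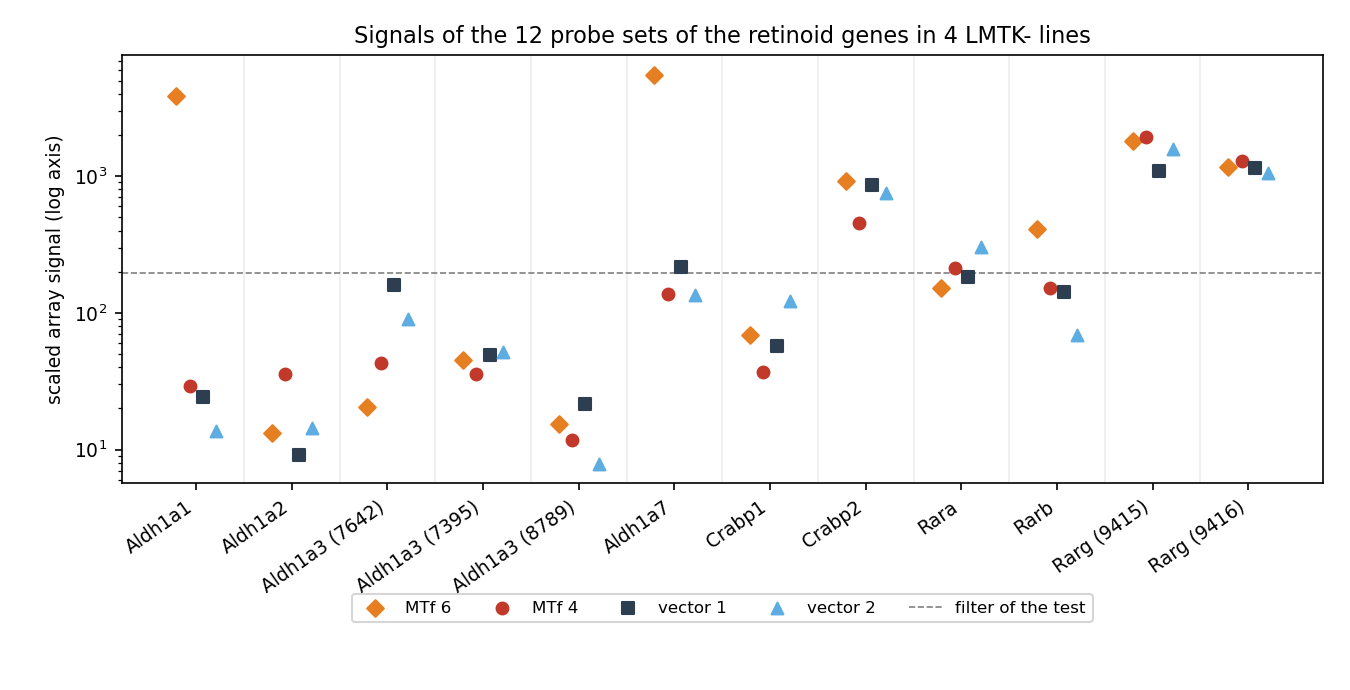
Scaled array signal (log axis) of each of the 12 member probe sets in MTf 6, MTf 4, vector 1 and vector 2, 1 array per point. Probe sets of the same gene are told apart by the last 4 digits of their identifier, and the dashed line is the filter of the test at a signal of 196. Aldh1a1 and Aldh1a7 stand at 3851 and 5530 in MTf 6 and at or below 216 in the other lines.

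The other retinaldehyde dehydrogenases were dim in all 4 lines. Aldh1a2, the main source of retinoic acid in the early embryo, gave 13.2 in MTf 6 and 35.7 in MTf 4, against 9.1 in vector 1 and 14.5 in vector 2. The line highest in signal was MTf 4, and all 4 were near the floor. Aldh1a3, an enzyme of the eye and nasal region, has 3 probe sets, of which 1417642_at gave 20.4 in MTf 6 and 43.0 in MTf 4, against 160 in vector 1 and 90.9 in vector 2. Both MTf lines thus lay below both vector lines, with a log2 difference of -1.29 that was not tested because the probe set was below the filter. The probe set 1427395_a_at gave 45.3 in MTf 6 and 36.0 in MTf 4, against 49.3 in vector 1 and 51.9 in vector 2. The probe set 1448789_at stayed between 7.9 and 21.4, and its groups overlapped.

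The carriers of retinoic acid did not part the groups. Crabp2, which hands retinoic acid to the receptors, gave 916 in MTf 6 and 454 in MTf 4, against 858 in vector 1 and 759 in vector 2. MTf 4 was the low line and the other 3 were close together. Its log2 difference of MTf minus vector was -0.31 (SE 0.34, 95% interval -1.09 to 0.48; limma, adjusted p = 1.00). Without MTf 4 the difference was 0.18. Crabp1 gave 69.0 in MTf 6 and 37.1 in MTf 4, against 57.2 in vector 1 and 122 in vector 2, all below the filter.

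Among the receptors, Rarg and Rarb had both MTf lines above both vector lines, and Rara did not. Rarg, the receptor of skin and cartilage, gave 1795 in MTf 6 and 1925 in MTf 4, against 1097 in vector 1 and 1574 in vector 2, by its probe set 1419415_a_at. The group means were 1860 ± 92.0 in the MTf lines and 1335 ± 337 in the vector lines (SD, n = 2 each). The log2 difference was 0.49 (SE 0.24, 95% interval -0.07 to 1.05; limma, adjusted p = 1.00). By 1419416_a_at Rarg gave 1166 in MTf 6 and 1301 in MTf 4, against 1143 in vector 1 and 1049 in vector 2. By each probe set the lowest MTf line was above the highest vector line. The difference by the second was 0.16 (95% interval -0.33 to 0.66; limma, adjusted p = 1.00).

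Rarb, the receptor that retinoic acid induces in many cells, gave 409 in MTf 6 and 151 in MTf 4, against 143 in vector 1 and 69.1 in vector 2. MTf 6 was 2.41-fold over MTf 4, the highest of the other lines, and MTf 4 was close to vector 1. The log2 difference between the groups was 1.10, below the filter and not tested. Rara, the receptor of widest expression, gave 153 in MTf 6 and 212 in MTf 4, against 183 in vector 1 and 304 in vector 2. The groups overlapped, with a log2 difference of -0.34 (SE 0.38, 95% interval -1.23 to 0.55; limma, adjusted p = 1.00).

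Of the 12 member probe sets, 5 passed the filter and were tested: 1 each of Aldh1a7, Crabp2 and Rara, and 2 of Rarg. Aldh1a7 passed through its level in MTf 6 alone. None of the 5 was called by limma at an adjusted p under 0.05, where 0.00444% of all 22519 tested probe sets were. An unadjusted p under 0.05 was found for 0, where 1.9% of all tested had one. Meltf, the transgene, was itself not called (log2 difference 2.52; limma, adjusted p = 0.090). A missing call therefore does not show that a gene is unchanged. In a fit without the filter 0 of the 12 were called, where 0% of all 45037 probe sets were. In that fit 1 of the 12, Aldh1a3 by 1417642_at, had an unadjusted p under 0.05, where 3.57% of all did. The log2 difference of Aldh1a7 between the groups was 2.25 in the mean of the MTf lines and turned to -0.27 without MTf 6. MTf and vector lines lay apart without overlap in 2 of the 5 tested member probe sets, against 25.8% of all tested. Over all 12 it was 6, against 29.4% of all non-control probe sets, with 4 higher, against 14.3%, and 2 lower, against 15.1%. Among the 4, Aldh1a1 rests on 29.0 in MTf 4 against 24.3 in vector 1, signals too near the floor to be ordered. Rarb, below the filter, rests on 151 in MTf 4 against 143 in vector 1, and the other 2 are both of Rarg. The 2 lower ones are both of Aldh1a3, below the filter. These counts are therefore not read as a result about the members. With 2 arrays per group the smallest exact two-sided permutation p is 0.333.

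**Figure D2:**
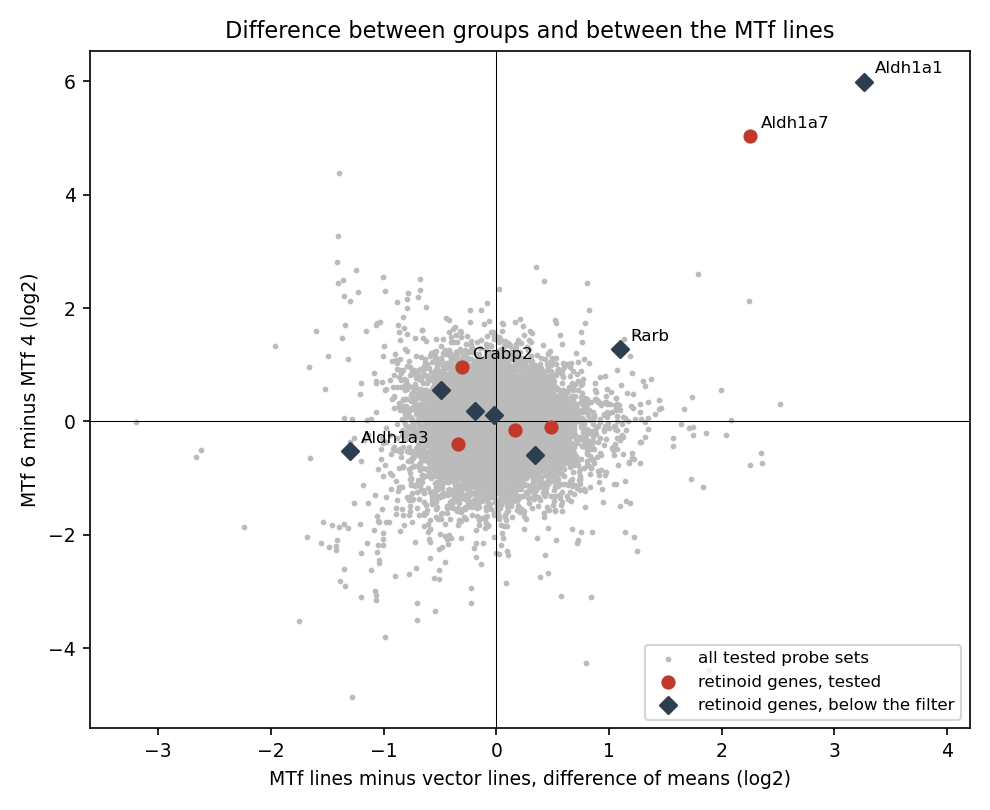
Each point is a probe set, with its log2 difference of MTf lines minus vector lines on the horizontal axis and MTf 6 minus MTf 4 on the vertical axis. Grey points are all 22519 tested probe sets, circles the 5 tested members and diamonds the 7 members below the filter. Aldh1a1 and Aldh1a7 lie apart at the upper right, with group differences of 3.26 and 2.25, and Rarb and the Aldh1a3 probe set 1417642_at are labelled at 1.10 and -1.29.

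Between MTf 6 and MTf 4, 3 of the 12 member probe sets were at least 2-fold higher in MTf 6, against 8.04% of all non-control probe sets, and 0 were at least 2-fold lower, against 7.12%. Among the tested ones it was 1 of 5, Aldh1a7, against 1.43% of all tested. Crabp2, at 1.95-fold, was just under this limit and passed it after quantile normalization, at 2.11-fold. Between vector 1 and vector 2, 0 of the 12 differed 2-fold either way, against 13.9% of all. Aldh1a7 was chosen for its difference between the MTf lines, so these counts are not read as a result about the members.

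Aldh1a7 and Aldh1a1 adjoin each other on chromosome 19, and the genes around them did not share their pattern. Of the 5 nearest genes with a named probe set on each side of Aldh1a7, 9 were not members. None of their 27 probe sets was at least 2-fold above each other line in MTf 6. Anxa1, the phospholipid-binding annexin next to Aldh1a1, gave 33277 in MTf 6 and 29579 in MTf 4, against 23168 in vector 1 and 24860 in vector 2. Tmc1, a mechanosensory channel gene of the inner ear on the far side of Aldh1a7, was at or below 171 in all 4 lines. Rorb, Trpm6 and D030056L22Rik on the side of Aldh1a1, and Zfand5, Gda, 1110059E24Rik and Abhd17b on the other, were the remaining neighbours. Of the 19 tested probe sets of these neighbours, 0 were at least 2-fold higher in MTf 6 than in MTf 4 and 4 were at least 2-fold lower.

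Gda, the guanine deaminase gene and the third named gene beyond Aldh1a7, went the other way. By the probe set of highest mean signal it gave 1938 in MTf 6 and 7698 in MTf 4, against 2904 in vector 1 and 4823 in vector 2. All 3 of its probe sets were lowest in MTf 6, with log2 differences of MTf 6 minus MTf 4 between -2.39 and -1.72. The remaining low probe set was 1 of 3 of Rorb, an orphan nuclear receptor, at -1.06, while the Rorb probe set of highest mean signal was at 0.24.

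**Figure D3:**
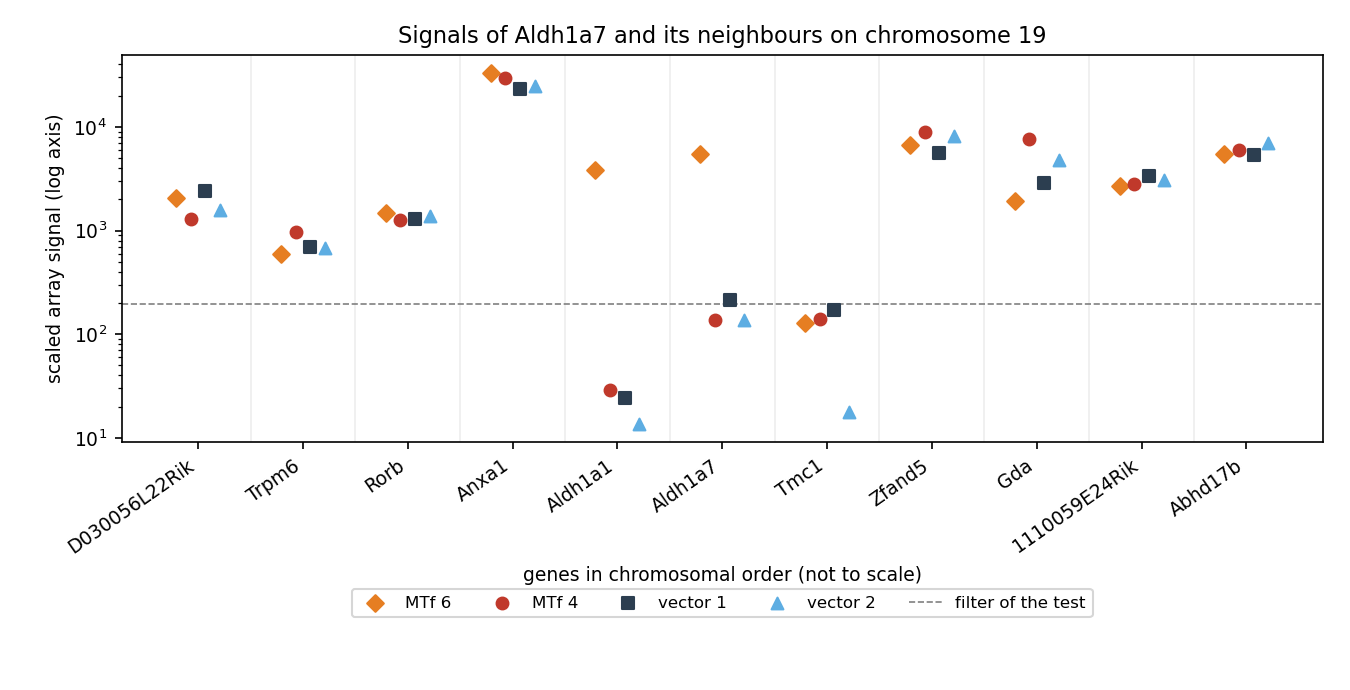
Scaled array signal (log axis) in MTf 6, MTf 4, vector 1 and vector 2 of Aldh1a7 and the 5 nearest genes with a named probe set on each side, in the gene order of GRCm38.p6, each by the probe set of highest mean signal. Only Aldh1a1 and Aldh1a7 stand far above the other lines in MTf 6, and Gda is lowest there at 1938.

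Genes with signals most like those of Aldh1a7 over the 4 arrays were sought by the distance between centred log2 signals, among 19378 tested probe sets. This distance does not compare the order of the lines. The nearest was Atp8a1, a phospholipid flippase, at a distance of 1.80, with 1273 in MTf 6 and 184 in MTf 4, against 139 in vector 1 and 106 in vector 2. Next came Rnase2a, an eosinophil-type ribonuclease, at 2.37, Mamdc2 at 2.55, a second probe set of Atp8a1 at 2.58 and Eqtn at 2.60. By Pearson's r over the same 4 arrays, among 196 probe sets with a range of at least 2 (log2), the leading genes were Atp8a1 (r = 0.98), Eqtn (r = 0.97) and Snap91 (r = 0.97). Aldh1a1, which was below the filter, was nearer than all of them at a distance of 1.23. With 4 arrays that share 1 high line, such a likeness is a description only.

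Genes of retinol and retinoid handling had a median difference between the groups next to that of all genes. Of 27 listed genes of retinol binding, uptake and metabolism, 25 had a probe set and 13 were tested. The mean of the MTf lines was above that of the vector lines for 6 and below it for 7. The median of these log2 differences was -0.02, beside -0.01 over all 10682 tested genes, and 0 passed the test. At an unadjusted 0.05 there were also 0. Between MTf 6 and MTf 4 the median was 0.23, with 8 genes higher and 5 lower in MTf 6, beside -0.05 over all tested genes. Rdh10, the main retinol dehydrogenase of the embryo, gave 2068 in MTf 6 and 1410 in MTf 4, against 1473 in vector 1 and 1818 in vector 2. By its other tested probe set it gave 681 in MTf 6 and 643 in MTf 4, against 710 in vector 1 and 815 in vector 2. There both MTf lines lay below both vector lines. Retsat, a retinol saturase, had the smallest p of the list, with 899 in MTf 6 and 1316 in MTf 4, against 1790 in vector 1 and 1396 in vector 2. Its difference was -0.53 (95% interval -1.13 to 0.08; limma, adjusted p = 1.00). By its other tested probe set the difference was -0.13, the groups overlapped and MTf 4 was the highest line.

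The short-chain dehydrogenases Rdh11 and Rdh14 each had a difference of -0.36, and Rbp3, a retinoid-binding protein of the retina, of 0.65. The other tested probe sets of Rdh11 and Rdh14 were at -0.16 and 0.25. Adh1, an alcohol dehydrogenase that oxidises retinol, was more than 2-fold lower in MTf 6 than in MTf 4, with 546 in MTf 6 and 1258 in MTf 4, against 593 in vector 1 and 953 in vector 2. Below the filter, Stra6, the membrane receptor for retinol-binding protein, gave 155 in MTf 6 and 31.6 in MTf 4, against 32.8 in vector 1 and 41.4 in vector 2. Adh4, another retinol-oxidising alcohol dehydrogenase, gave 128 in MTf 6 and 30.1 in MTf 4, against 15.3 in vector 1 and 21.2 in vector 2. These 2 of the 37 probe sets of the list stood at least 2-fold above each other line in MTf 6, at low signals.

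Breakdown of retinoic acid falls to the Cyp26 enzymes, and the genes measured were below the filter. Cyp26a1, itself a retinoic acid target, gave 149 in MTf 6 and 81.0 in MTf 4, against 79.8 in vector 1 and 51.9 in vector 2. Cyp26b1 gave 69.0 in MTf 6 and 56.2 in MTf 4, against 75.9 in vector 1 and 174 in vector 2. Of 3 listed genes 2 had a probe set, and 0 were tested.

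Partners and coregulators of the receptors differed little between the groups. Of 15 listed genes 13 had a probe set and 12 were tested, with 8 higher and 4 lower in the MTf lines, a median difference of 0.06 and 0 that passed, by limma or at an unadjusted 0.05. The median was -0.19 without vector 1. Between MTf 6 and MTf 4 the median was -0.20, with 10 genes lower and 2 higher in MTf 6. Rxrb, a retinoid X receptor, gave 1683 in MTf 6 and 2070 in MTf 4, against 2094 in vector 1 and 2645 in vector 2. Rxra gave 860 in MTf 6 and 983 in MTf 4, against 736 in vector 1 and 1170 in vector 2. By its other tested probe set it gave 869.5 in MTf 6 and 968 in MTf 4, against 866 in vector 1 and 792 in vector 2. There the groups did not overlap, with a log2 difference of 0.14. Rxrg, below the filter, gave 173 in MTf 6 and 41.4 in MTf 4, against 116 in vector 1 and 34.2 in vector 2. The coactivators Ncoa2 and Ncoa3 had differences of -0.31 and 0.19. The other tested probe sets of Ncoa2 lay between -0.41 and 0.20, and that of Ncoa3 was at 0.37. Fabp5, which carries retinoic acid to another nuclear receptor, gave 15805 in MTf 6 and 9500 in MTf 4, against 17261 in vector 1 and 13853 in vector 2, with MTf 4 the low line as for Crabp2.

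The listed targets of retinoic acid had no member with the excess in MTf 6 seen for Aldh1a1. The list leaves out Rarb and Cyp26a1, named above as targets and both highest in MTf 6. Rarb was 2.41-fold and Cyp26a1 1.60-fold over the highest other line, both below the filter. Of 23 listed genes 20 had a probe set and 11 were tested, with 4 higher and 7 lower in the MTf lines and a median difference of -0.06. None passed, and 1, Tgm2, had an unadjusted p under 0.05 by the probe set that stood for the gene. Between MTf 6 and MTf 4 the median of these genes was -0.09, beside -0.05 over all tested genes, and none of the 45 probe sets of the list was at least 2-fold above each other line in MTf 6. Tgm2, a crosslinking transglutaminase, gave 3299 in MTf 6 and 2272 in MTf 4, against 2001 in vector 1 and 1559 in vector 2, with a difference of 0.62 (95% interval 0.04 to 1.21; limma, adjusted p = 1.00). Rarres2, the gene of the adipokine chemerin, gave 671 in MTf 6 and 1073 in MTf 4, against 166 in vector 1 and 705 in vector 2. By this probe set, the one of highest mean signal, the groups overlapped and vector 1 was the low line. Its other 2 probe sets had both MTf lines above both vector lines. The tested one of these gave 434 in MTf 6 and 745 in MTf 4, against 16.6 in vector 1 and 253 in vector 2, a difference of 2.35 (95% interval 0.60 to 4.11; limma, unadjusted p = 0.015, adjusted p = 1.00). The other, below the filter, gave 151 in MTf 6 and 159 in MTf 4, against 132 in vector 1 and 29.7 in vector 2. Bhlhe40, a basic helix-loop-helix repressor, had a difference of -0.37, and Meis2, a homeobox factor, of -0.31, while its other 3 probe sets lay between -0.19 and 0.13.

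The wider aldehyde dehydrogenase family did not share the excess in MTf 6. Of 16 listed genes 15 were tested, with 10 higher and 5 lower in the MTf lines, a median of 0.04 and 0 that passed, by limma or at an unadjusted 0.05. Aldh1l2, a mitochondrial folate enzyme, had the smallest p, with 12773 in MTf 6 and 15022 in MTf 4, against 11851 in vector 1 and 10373 in vector 2 (log2 difference 0.32, 95% interval -0.10 to 0.74; limma, adjusted p = 1.00). Between MTf 6 and MTf 4 the median was -0.13, with 10 genes lower and 5 higher in MTf 6. Between the MTf lines 2 of these genes were at least 2-fold apart, both lower in MTf 6. Aldh6a1, of valine breakdown, gave 675 in MTf 6 and 1853 in MTf 4, against 739 in vector 1 and 1460 in vector 2. Aldh3a1, the crystallin of the cornea, gave 164 in MTf 6 and 379 in MTf 4, against 218 in vector 1 and 550 in vector 2. Its difference between the groups was -0.42, and those of Aldh3b1 and Aldh3b2 were 0.20 and -0.20.

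**Figure D4:**
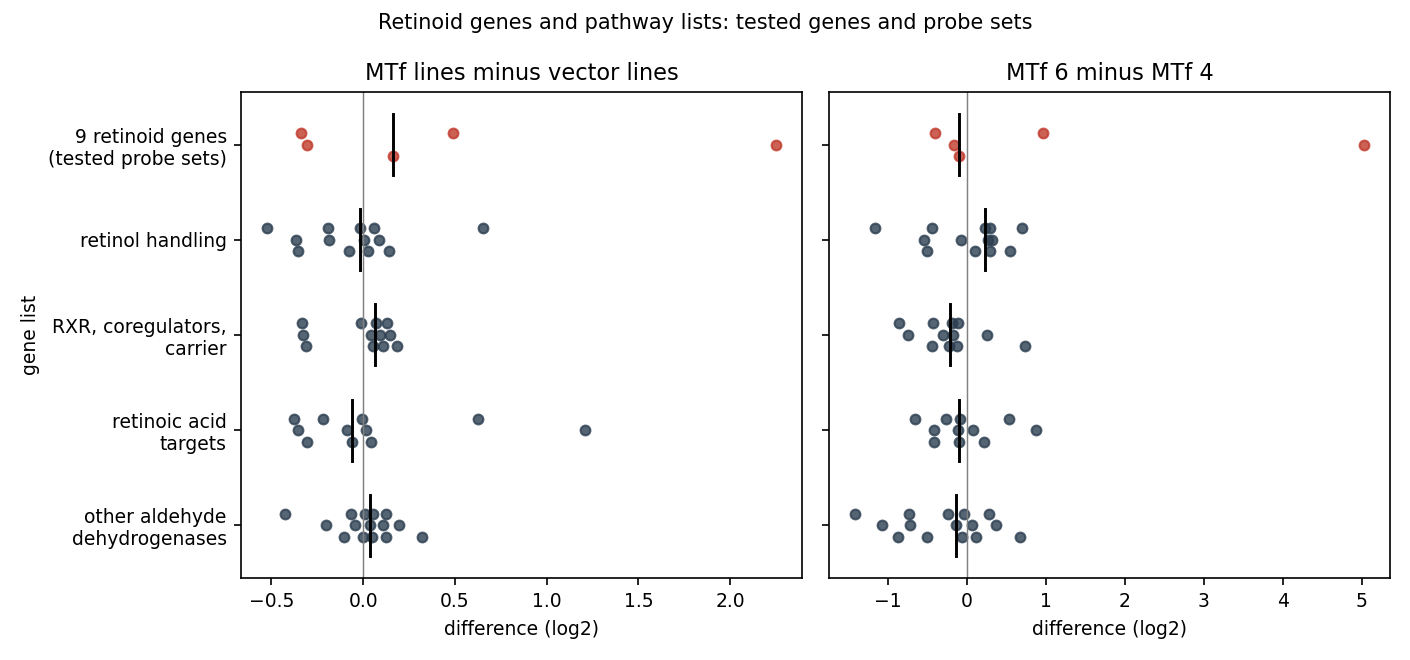
Log2 differences of the 5 tested member probe sets and of the tested genes of 4 lists (13, 12, 11 and 15 genes), for MTf lines minus vector lines on the left and MTf 6 minus MTf 4 on the right, with a black bar at each median. Aldh1a7 is the point at 5.03 on the right, and the list medians lie between -0.06 and 0.06 on the left.

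Markers of other cell types were set beside the excess of Aldh1a1 and Aldh1a7 in MTf 6. The hepatocyte markers Alb, Ttr and Apoa1, named because liver is rich in Aldh1a1, had a summed signal of 160 in MTf 6 and 226 in MTf 4, against 243 in vector 1 and 358 in vector 2. For the 4 epithelial markers the sum was 1120 in MTf 6 and 808 in MTf 4, against 810 in vector 1 and 637 in vector 2. Epcam gave 405 in MTf 6 and 326 in MTf 4, against 131 in vector 1 and 40.1 in vector 2, and Cdh1 was at or below 102 in all lines. Krt8 gave 520 in MTf 6 and 419 in MTf 4, against 572 in vector 1 and 505 in vector 2. Krt18 gave 92.7 in MTf 6 and 37.6 in MTf 4, against 101 in vector 1 and 46.2 in vector 2. Both keratins were thus highest in vector 1. Of the 4, only Krt8 passed the filter. Macrophage markers summed to 760 in MTf 6 and 1445 in MTf 4, against 1307 in vector 1 and 1241 in vector 2. Endothelial markers summed to 520 in MTf 6 and 481 in MTf 4, against 481 in vector 1 and 463 in vector 2. Melanocyte markers summed to 593 in MTf 6 and 266 in MTf 4, against 400.2 in vector 1 and 615 in vector 2. All probe sets of the melanocyte and hepatocyte markers were below the filter, so their sums are of dim signals. Of the endothelial markers only Kdr passed it, and of the macrophage markers all but Ptprc did. The part of other cells in the levels of Aldh1a1 and Aldh1a7 was not tested. In these bulk samples, more cells with a transcript and more transcript per cell cannot be told apart.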

How the data were processed

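The deposited table gives 1 intensity per probe set and array on a linear scale, made by the authors with GCOS 1.3 per the submitters' processing notes, with settings not given in the sources used here. Since the 2%-trimmed mean was 1000.01 on each of the 4 arrays, the values were used as deposited. Genes were taken from the platform annotation, which paired 34945 of 45037 non-control probe sets with 1 gene, and gene order from a RefSeq gene table of GRCm38.p6.

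Values were converted to log2(signal + 32). The filter kept the 22519 non-control probe sets with a mean on that scale at or above the overall median, which corresponds to a signal of 196. These were fitted with limma 3.58.1 under R 4.3.3 (lmFit, eBayes with a trend), as MTf minus vector, Benjamini-Hochberg adjusted over all tested probe sets, at a threshold of 0.05, and the fit was tested on simulated data. Lists use each gene's tested probe set with the highest mean. The text names all member probe sets, up to 4 tested genes per list with the smallest p, those 2-fold apart between the MTf lines, the RXR and Cyp26 genes, the neighbours and the most alike genes. Rdh10, Sorbs2 and the remaining names outside that rule were chosen after their values were seen. Members and lists were chosen with earlier results of these data known. The number of arrays limits the precision. In all 11 alternatives were run.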

Additional observations from a re-analysis of the deposited data

How the results depend on the processing

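The offset, normalization, filter and variance trend were changed, each array was left out, and for lists a gene was also taken as the median of its probe sets. No paired analysis was possible because the replicate numbers of the groups are not shared. The call count over all tested probe sets was 1, and became 0 without the filter and 0 without the trend. It lay between 2 and 25 with 1 array left out, in fits where a lone array is assumed to vary like the other group. Among member probe sets 0 were called in any setting that kept all arrays. Leaving out MTf 4 sets MTf 6 alone against the vector lines, and Aldh1a7 was chosen for its level in MTf 6. Its log2 difference of 4.77 in that fit is therefore a description and carries no test. With 1 array left out its log2 difference lay between -0.27 (without MTf 6) and 4.77, and that of Crabp2 between -0.79 (without MTf 6) and 0.18 (without MTf 4), so both changed sign.

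Tested members whose groups did not overlap numbered 2, and 5 with a filter at the lower quartile, 6 without a filter and 2 to 5 with 1 array left out. Tested members at least 2-fold apart between MTf 6 and MTf 4 numbered 1, and 2 after quantile normalization, 3 with the lower quartile and 3 without a filter, since these settings test more probe sets or, after quantile normalization, bring Crabp2 past the limit. The fold of Aldh1a7 between MTf 6 and MTf 4 lay between 27.7 and 36.1 over the offsets, normalization and filters. Signals near the floor have no order, which touches Aldh1a2, Aldh1a3, Crabp1 and the lines other than MTf 6 for Aldh1a1.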
